A study of Mus musculus with 4 samples.

Results

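Alveolar fibroblasts of the bleomycin-injured mouse lung were selected here as single cells by a rule on UMI (unique molecular identifier) counts, and 3171 cells met it, of 30860 cells within the quality limits (10.3%) and of 32121 cells in all (9.87%). A cell had to hold at least 2 UMIs of Col1a2, a chain of type I collagen, and at least 1 UMI of 2 or more of the 5 marker genes Npnt, Inmt, Slc7a10, Scn3a and Fgfr4. It could hold at most 1 UMI each of Cthrc1, a gene of fibrotic fibroblasts, and Lcn2, a gene of inflammatory fibroblasts. It could hold no UMI of Pi16 (adventitial fibroblasts), Hhip (peribronchial fibroblasts and myofibroblasts), Ptprc (immune cells), Cdh5 (endothelial cells) or Epcam (epithelial cells). The members made up 20.0% of the 15864 cells that had Col1a2 and lacked Ptprc, Cdh5 and Epcam. The levels of all these genes therefore chose the cells, and where given below they are a description without a test.

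Alveolar fibroblasts are the resident fibroblasts of the gas-exchange region. They lie beside the alveolar epithelium, supply it with growth factors, hold lipid and retinoid stores, and lay down the elastin and collagen of the alveolar wall. After injury they can give rise to inflammatory and fibrotic fibroblasts, and their own marker genes are known to be lower in those states.

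The cells came from 4 adult mice of both sexes, 2 wild-type (WT) littermates and 2 Tubb3-/- mice, all of which had received 0.8 U/kg bleomycin through the trachea and were analysed at day 14. The Tubb3-/- mice carried on both alleles a Cre sequence placed at the translation start of Tubb3, the gene of β-III tubulin, so the loss was in the whole body and not in fibroblasts alone. No uninjured mice were analysed here, so each comparison below is between genotypes within injured lungs. Each lung gave a library of whole lung cells, depleted of erythrocytes with TER-119 and sorted for live cells, and a mural cell-enriched library of mesenchymal cells. For the latter, CD31+, CD45+, EpCAM+ and TER-119+ cells were removed, and MCAM+ PDGFRα- mural cells were sorted and remixed in equal parts with MCAM- cells. The PDGFRα gate therefore bears on the share of fibroblasts in that library, and the 4 mice of each library kind were tagged, pooled and sorted together.

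Of the 3171 cells, 444 came from the whole-cell libraries and 2727 from the mural cell-enriched libraries. Per mouse there were 793 and 832 cells in WT and 779 and 767 cells in Tubb3-/-, with 11590374, 11472226, 13300394 and 12244553 UMIs in sum. The median depth per cell was 13637 and 12900.5 UMIs in WT and 15558 and 14811 UMIs in Tubb3-/-, so the Tubb3-/- cells held more UMIs. No cell barcode was shared between mice of a pool. Tubb3 had 79 and 25 UMIs in the WT members and 12 and 17 UMIs in the Tubb3-/- members, and Cre had no UMI in any member. Tubb3 is so low in these cells that it gives only a weak check of the labels. Replicate 1 of both genotypes carried Y-linked Ddx3y (1789 and 1581 UMIs, against 54 and 53 in replicate 2) and replicate 2 carried Xist (7318 and 7630 UMIs, against 133 and 168), so the sexes were balanced between genotypes.

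The label was checked against genes that the rule does not use, and the members were a mixture. Pdgfra, a receptor gene of alveolar and adventitial fibroblasts, had a UMI in 59.9% of members, and Tcf21, a transcription factor of the same cells, in 58.1%. Myh11, the smooth muscle myosin heavy chain, had a UMI in 66.7%, and 1604 members held at least 2 of its UMIs. In cells with Ptprc, which should lack all 3 genes, the shares were 10.7% for Pdgfra, 6.46% for Tcf21 and 14.6% for Myh11, at a median of 10814 UMIs per cell against 14095 in the members. Pdgfra without Myh11 (at most 1 UMI) was found in 1394 members (44.0%), and Myh11 without Pdgfra in 1099 members (34.7%). Both were found in 505 members (15.9%) and neither in 173 (5.46%). The mixture differed by library kind. At least 2 Myh11 UMIs were found in 16.5% and 7.30% (WT) and 16.8% and 13.4% (Tubb3-/-) of the whole-cell members. In the mural cell-enriched libraries these shares were 60.5%, 42.3%, 63.6% and 60.7% in the same order. Pdgfra was found in 80.2%, 89.1%, 83.2% and 85.6% of the former and 50.4%, 68.3%, 52.6% and 51.6% of the latter.

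The mixture followed the number of markers a cell held. Npnt, which encodes the integrin ligand nephronectin, had a UMI in 99.2% of members, and Inmt, which encodes an amine N-methyltransferase, in 94.2%. Scn3a, a sodium channel subunit, was found in 36.2%, the receptor Fgfr4 in 24.2%, and the amino acid transporter Slc7a10 in 17.3%. The pair Npnt and Inmt alone admitted 1699 members (53.6%), of which 36.5% had Pdgfra and 70.5% had at least 2 Myh11 UMIs. Of the 1890 members with 2 markers, 36.9% had Pdgfra and 40.4% Tcf21, whereas of the 1281 members with 3 or more markers 93.8% had Pdgfra and 84.2% Tcf21. Acta2, smooth muscle actin, lay at 7874 CPM, UMI counts scaled to the same total in each set of cells, in the former and 1233 CPM in the latter. Npnt and Inmt also had UMIs in 21.1% and 21.3% of the cells with Ptprc, and 8.05% of those cells held 2 or more of the 5 markers. Adventitial cells, with at least 2 Pi16 UMIs, had Pdgfra in 92.5% and Tcf21 in 79.4%, so these shares do not tell alveolar from adventitial cells. By them, a fibroblast label held for the cells with 3 or more markers and not for much of the 2-marker set. Limch1 and Wnt2 are set beside adventitial cells below. For the gene lists whose count or direction changes with the set, values are also given for narrower sets. These are the 1281 cells with 3 or more markers, the 1567 cells with at most 1 Myh11 UMI and the 1604 cells with 2 or more. None of these narrower sets is independent of the full set.

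**Figure D1:**
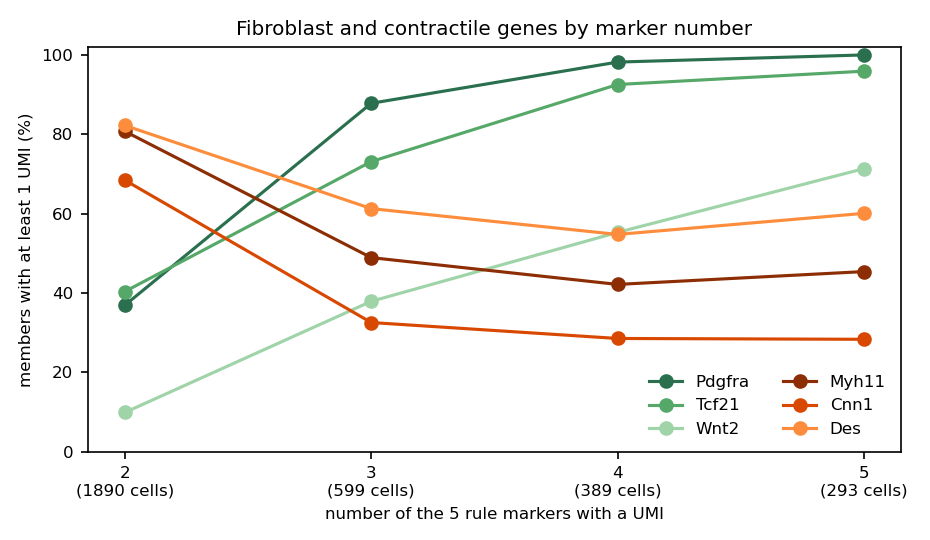
Share of members with at least 1 UMI (y axis, percent of cells) of 3 fibroblast genes (green lines) and 3 contractile genes (orange and brown lines). The x axis gives the number of the 5 rule markers the cell held, with the number of cells. From 2 to 5 markers Pdgfra went from 36.9% to 100% and Wnt2 from 9.89% to 71.3%, while Myh11 went from 80.7% to 45.4% and Cnn1 from 68.4% to 28.3%.

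The cells next to each threshold showed where the rule cut. The 2629 cells that met every other clause but held 1 marker had 41.6 CPM of Pdgfra and 2194 CPM of Myh11, against 148 and 1547 CPM in the 1890 members with 2 markers. The clause on Hhip removed 3548 cells that met all the rest, more cells than the rule kept. Of these, 87.8% had Pdgfra and 30.2% had at least 2 Myh11 UMIs, against 59.9% and 50.6% in the members, so the cells removed by Hhip held the fibroblast genes more often than the cells kept. Hhip had a UMI in 6.92% of the cells with Ptprc. The 1127 removed cells with a single Hhip UMI had 506 CPM of Pdgfra, against 389 CPM in the members. The Cthrc1 clause cut little here: 484 members held 1 Cthrc1 UMI and 94 cells were left out for holding 2, with 329 and 289 CPM of Pdgfra.

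Among the members, the genes that varied most from cell to cell beyond counting noise, in cells thinned to 5000 UMIs, included contractile, matrix and acute-phase genes among others. The highest ratio of variance to the counting expectation was that of Mgp, the calcification inhibitor matrix Gla protein, which was found at 45052 CPM in the members with at most 1 Myh11 UMI and 22137 CPM in those with 2 or more. Acta2 and Tagln, which encode contractile proteins, divided the cells the other way, with 419 CPM of Acta2 in the former and 9907 CPM in the latter. Complement C3 (1213 against 435 CPM), the acute-phase gene Saa3 (138 against 33.9 CPM) and the microfibril gene Mfap4 (3228 against 1025 CPM) were again higher in the cells low in Myh11. Spp1, which encodes osteopontin, was uneven between mice, with a variance ratio of 214 in Tubb3-/- replicate 1 and 80.2 in Tubb3-/- replicate 2 against 18.2 and 12.2 in the WT mice. The other genes among the 10 most variable were Malat1, a nuclear non-coding RNA (19821 CPM in the cells low in Myh11 against 23105 CPM), Gm42418 (13368 against 9629 CPM) and the potassium channel gene Kcnq5 (52.1 against 197 CPM). Of the 50 most variable genes of each mouse, 26 were shared by all 4.

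Beside the other fibroblast sets the members stood where the rule placed them, and these values are a description. For these, 1724 cells with at least 2 Pi16 UMIs were taken as adventitial and 765 cells with at least 2 Cthrc1 UMIs as fibrotic. The mean over the 4 mice for Npnt was 898 CPM in the members, 206 CPM in adventitial and 246 CPM in fibrotic cells. Limch1, an actomyosin-binding protein that the rule did not use, stood at 1631, 735 and 419 CPM in the same order, and Wnt2, a Wnt ligand of the alveolar niche, at 37.1, 13.3 and 17.2 CPM. Tcf21 did not set the members as a whole apart from adventitial cells (210.1 against 181 CPM), but it stood at 346 CPM in the cells with 3 or more markers. Col1a1, the other chain of type I collagen, was found at 1757 CPM in the members, 4661 CPM in adventitial and 6923 CPM in fibrotic cells. Eln, which encodes elastin, was at 3903, 3053 and 3701 CPM, so the elastin level of the members lay beside that of fibrotic cells while their collagen level did not.

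The genes whose level most resembled the sum of the 5 markers over 16 points (4 mice in the alveolar, adventitial, fibrotic and inflammatory sets) were Mettl7a1 (r = 0.97), Lnx2 (0.96), Aldh1a1 (0.96), Adarb1 (0.96) and Aldh2 (0.95). Aldh1a1 encodes a retinaldehyde dehydrogenase, Aldh2 the mitochondrial acetaldehyde dehydrogenase and Adarb1 an RNA-editing adenosine deaminase. These points share mice and libraries, so the correlations have no p-value and describe the pattern only.

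Over both library kinds together, the members made up a smaller share of the Col1a2+ lineage-negative cells in each Tubb3-/- mouse than in each WT mouse, as a description of the rule at work. The share was 20.4% and 26.3% in WT and 16.7% and 18.5% in Tubb3-/-, or 23.4% ± 4.20 (SD, n = 2) against 17.6% ± 1.23 (SD, n = 2). With 3 or more markers required, it was 7.58% and 15.9% in WT and 5.19% and 5.78% in Tubb3-/-. WT replicate 2 stood above the other 3 mice in both counts, and without it the difference (Tubb3-/- minus WT) was -2.79 percentage points in place of -5.76. The clauses themselves differed between mice: at least 2 Cthrc1 UMIs were found in 6.94% and 4.46% of the Col1a2+ cells of WT and in 16.4% and 12.6% of those of Tubb3-/-, and fewer than 2 markers in 41.6% and 30.7% against 41.5% and 37.4%. In the whole-cell libraries alone, which had no PDGFRα gate, the share of Col1a2+ cells was 18.3% and 29.3% in WT and 17.2% and 18.4% in Tubb3-/-, so Tubb3-/- replicate 2 lay above WT replicate 1. There the members were 2.67% and 4.39% of all cells in WT and 2.85% and 2.81% in Tubb3-/-, where the genotypes overlapped. With every cell thinned to 5000 UMIs before the rule was applied, the shares were 25.3% and 36.5% against 19.5% and 21.9%, but for a largely different set of cells. Of the 3924 cells that met the rule after thinning, 1984 were members as counted, and 1483 had held Hhip UMIs before it. A lower share can come from fewer such cells or from cells whose marker RNA is lower, and these cannot be told apart with a rule on marker counts.

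**Figure D2:**
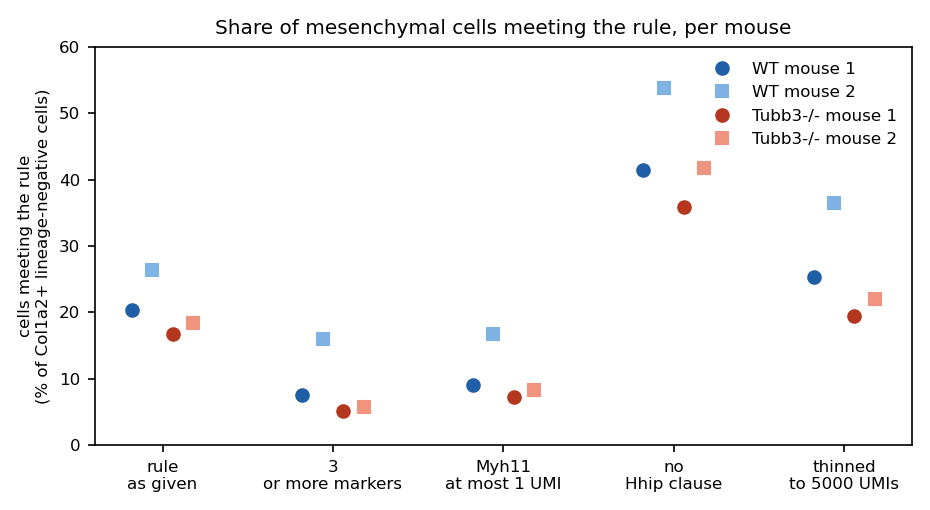
Cells meeting the rule as a percent of the Col1a2+ lineage-negative cells of each mouse (y axis), for the rule as given and for 4 changed rules (x axis); blue symbols are WT mice, red symbols Tubb3-/- mice, circles replicate 1 and squares replicate 2. Both Tubb3-/- mice lie below both WT mice in all but the rule without the Hhip clause, where Tubb3-/- replicate 2 (41.8%) overlaps WT replicate 1 (41.4%), and WT replicate 2 is the highest point in each set.

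WT replicate 2 also stood apart in what its members were. At least 2 Myh11 UMIs were found in 36.5% of its members, against 55.5%, 56.5% and 54.8% in WT replicate 1 and the Tubb3-/- mice, and 3 or more markers in 60.6%, against 37.2%, 31.1% and 31.3%. The summed level of the 6 smooth muscle markers was 9064 and 4836 CPM in the WT mice and 9350 and 7397 CPM in the Tubb3-/- mice, which stands beside every genotype difference below. Its part in those differences was not tested, but for some of them the values in the cells with at most 1 Myh11 UMI are also given.

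The genotype comparison asked which genes differed in the members of the 2 Tubb3-/- mice, and it was made on UMIs summed per mouse with edgeR's quasi-likelihood test. No gene of 14331 tested was called at a Benjamini-Hochberg adjusted p under 0.05 (0%). The lowest adjusted p was 0.134. At an unadjusted p under 0.05 there were 1703 genes, 621 higher (4.33%) and 1082 lower (7.55%) in Tubb3-/-, and DESeq2 called 206 of 14053 genes (1.47%), 77 higher (0.548%) and 129 lower (0.918%). In the cells with 3 or more markers edgeR called 0 of 12305 genes (0%), with 724 higher (5.88%) and 1047 lower (8.51%) at an unadjusted p under 0.05. That count of 0 did not hold with the replicate number, which matched the sex of the mice, as a block, where edgeR called 596 genes in these cells, 195 higher and 401 lower, and again 0 over all members. The levels of Tubb3-/- were above those of WT in every mouse in 3122 genes (21.8%) and below them in 3284 genes (22.9%), and these shares are the background for the counts of non-overlapping genes given for each list. A sum over cells cannot tell more RNA per cell from more cells that hold the RNA.

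The test called 2 of 13007 genes (0.0154%) in the 1567 members with at most 1 Myh11 UMI, and both were higher in Tubb3-/-. At an unadjusted p under 0.05 there were 855 genes higher (6.57%) and 1208 lower (9.29%) in these cells. In the 1604 members with 2 or more Myh11 UMIs it called 0 of 12860 genes (0%), with 308 higher (2.4%) and 666 lower (5.18%) at an unadjusted p under 0.05, and the genotypes did not overlap in 18.1% of genes (higher) and 19% (lower). In the members with at most 1 Myh11 UMI, Igfbp2 was at 5.82 and 4.13 CPM in WT and 41.9 and 42.6 CPM in Tubb3-/-. Igfbp2 encodes an insulin-like growth factor-binding protein. The groups were far apart, and Igfbp2 rose by 3.11 on the log2 scale (SE 0.18, edgeR adjusted p = 0.0128). Bpgm, bisphosphoglycerate mutase, lay at 18.6 and 20.4 CPM in WT and 73.7 and 69.2 CPM in Tubb3-/- in these cells, and it rose by 1.87 (SE 0.12, edgeR adjusted p = 0.0128). Over all members Igfbp2 was at 11, 6.71, 26.1 and 28.8 CPM in the 2 WT and then the 2 Tubb3-/- mice, with a log2 difference of 1.64 (SE 0.23) that was not called (edgeR adjusted p = 0.174). In members with 2 or more Myh11 UMIs Igfbp2 was at 16.1, 11.6, 11.5 and 15.1 CPM in the same order, where the genotypes overlapped. With 3 or more markers Bpgm rose by 1.18 (SE 0.13) and was not called (edgeR adjusted p = 0.0723). The cells with at most 1 Myh11 UMI also held mesothelial RNA. Msln was at 232 CPM there, 128 CPM with 2 or more Myh11 UMIs and 26.0 CPM with 3 or more markers. Upk3b was at 96.8, 54.5 and 11.2 CPM in the same order. The split on Myh11 was added after the data had been seen.

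Over all members, the 24 genes with the smallest unadjusted p among those without overlap between genotypes were all short of edgeR's threshold (adjusted p from 0.134 to 0.174), and all 24 were called by DESeq2. With the replicate block none of the 24 was called over all members, and the 23 that could be tested in the cells with 3 or more markers were all called there, although they had been chosen for their small p in the same mice. Among the 12 genes higher in both Tubb3-/- mice, P4ha3, a subunit of the prolyl hydroxylase that modifies collagen (chr7:100285520-100319699, plus strand, mm10), was at 9.35, 9.6, 27 and 28.4 CPM in the 2 WT and then the 2 Tubb3-/- mice, and neither genotype's mice differed much from each other. Its log2 difference was 1.55 (SE 0.12, edgeR adjusted p = 0.134) and 1.87 in the cells with 3 or more markers. Cilp, a secreted matrix protein that can bind TGF-β, lay at 15.9, 14.8, 35.2 and 40.8 CPM, and Ltbp2, a latent TGF-β-binding protein, at 133, 122, 235 and 271 CPM. Sfrp1, a secreted Wnt antagonist, was at 151 and 116 CPM in WT and 303 and 311 CPM in Tubb3-/-, a log2 difference of 1.20 (SE 0.15). Piezo2, a mechanically activated ion channel, lay at 32.5 and 26.3 CPM in WT and 73 and 73.6 CPM in Tubb3-/-. The other genes of this group were Fhod3, Scube1, Bpgm, Ecscr, Plac8, Vegfc and Lhfpl2, of which Ecscr is also on the endothelial list (12.8, 11.6, 30.8 and 26.6 CPM).

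Among the 12 genes lower in both Tubb3-/- mice, Akap12, a scaffold that anchors protein kinase A (chr10:4266380-4359470, plus strand), was at 196, 199.6, 98.8 and 98.8 CPM, and the log2 difference was -1.001 (SE 0.09, edgeR adjusted p = 0.134). Igfbp6, an insulin-like growth factor-binding protein, lay at 565, 632, 323 and 313 CPM, and Gstm1, a glutathione transferase, at 400.1, 417, 228 and 232 CPM. In each of these the WT mice lay near each other and above both Tubb3-/- mice. Bcl2l11, the pro-apoptotic BCL-2 family member BIM, was at 38.9, 36.8, 21.7 and 21 CPM, and Ripk1, a kinase of TNF signaling, at 95.8, 91.7, 49.8 and 49.8 CPM. In the annotation, Ripk1 overlaps Serpinb6a, Cstf3 overlaps Tcp11l1 and Arl13b overlaps Stx19, each on the opposite strand. Whether reads of the overlapping genes entered the counts was not tested. The others were Rasgef1b, Sowahc, Nxph1, Nup210l and Rps6ka5. Nxph1 was too low to be tested in the cells with 3 or more markers, and there the remaining 23 genes kept the non-overlap and the direction seen over all members.

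**Figure D3:**
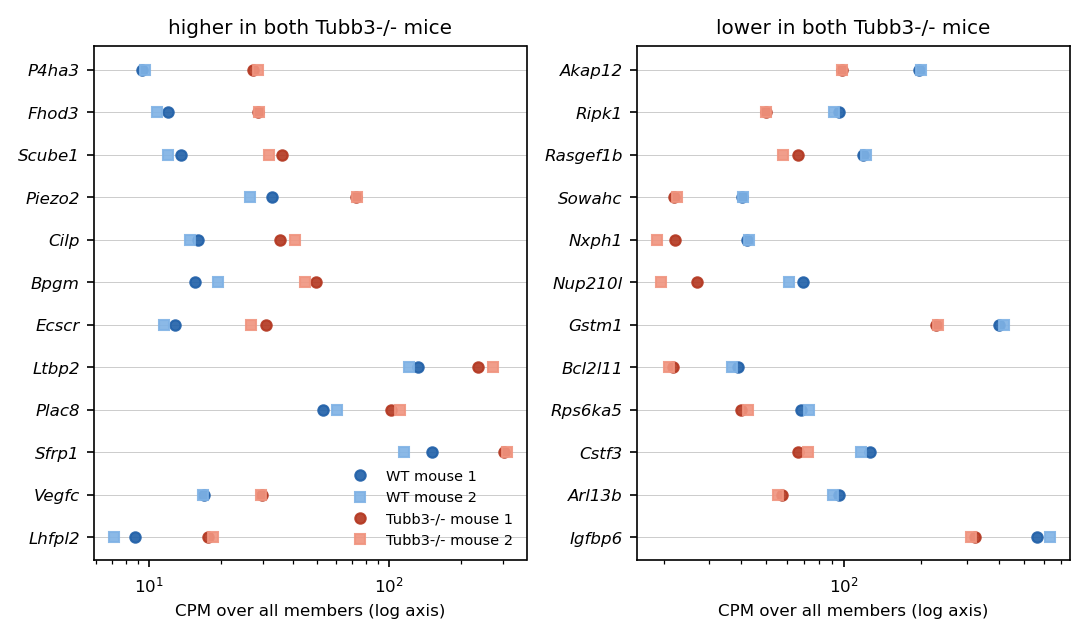
Level in each mouse (x axis, CPM on a log axis) of the 12 genes higher in both Tubb3-/- mice (left) and the 12 lower in both (right), summed over all members; blue symbols are WT, red symbols Tubb3-/-, circles replicate 1 and squares replicate 2. Within each gene the 2 mice of a genotype lie closer to each other than to the other genotype. The genes were chosen for this, by no overlap and the smallest unadjusted p in these mice. No gene was called by edgeR (adjusted p from 0.134 to 0.174).

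The 5 markers of the rule were lower or overlapping in Tubb3-/-, as a description. Inmt lay at 1179, 2258, 609.6 and 585 CPM and Npnt at 864, 1402, 635 and 681 CPM in the 2 WT and then the 2 Tubb3-/- mice. Slc7a10 was at 24.3, 75.5, 11.9 and 13.8 CPM, Scn3a at 64.5, 142, 40.4 and 43.7 CPM and Fgfr4 at 18.9, 53.1, 16.8 and 21.5 CPM. WT replicate 2 was the highest mouse for all 5, and for Fgfr4 WT replicate 1 lay within the Tubb3-/- mice.

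The alveolar fibroblast genes outside the rule pointed the same way. Of 20 such genes tested, 12 were lower in both Tubb3-/- mice and 1 was higher in both, with a median log2 difference of -0.50 against 0.0003 over all genes. None was called by edgeR, 8 were lower at an unadjusted p under 0.05, and DESeq2 called 2 lower. In the cells with 3 or more markers 13 of 20 were lower in both (median -0.37, against 22.8% of all genes there), and with at most 1 Myh11 UMI 15 of 20 (median -0.43, against 24.3%). In the members with 2 or more Myh11 UMIs only 2 of 20 were lower in both and 17 overlapped (median -0.39, against 19%). Over all members the median was -0.16 without WT replicate 2 and -0.74 without WT replicate 1. Tcf21 was at 192, 352, 128 and 165 CPM over all members and at 351, 505, 225 and 306 CPM with 3 or more markers, where the genotypes did not overlap. Limch1 lay at 1644, 2175, 1289 and 1407 CPM with a log2 difference of -0.50 (SE 0.18, edgeR adjusted p = 0.376). Spon1, a secreted matrix protein, was at 604, 913, 510.3 and 548 CPM, and Itga8, the integrin subunit that binds nephronectin, at 731, 719, 603 and 589 CPM. Mfap4 was at 2056, 2956, 1855 and 1966 CPM, and Gpx3, the secreted glutathione peroxidase, at 818, 1433, 877 and 847 CPM, where WT replicate 2 alone stood above the others. These genes resemble the rule's markers, and cells were chosen on those markers, so their counts are not independent of the choice.

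Genes of the fibrillar matrix were higher in Tubb3-/-. Of 30 tested, 22 were higher in both Tubb3-/- mice and 2 lower in both, against 21.8% and 22.9% of all genes, with a median log2 difference of 0.30. None was called by edgeR, 13 were higher and 2 lower at an unadjusted p under 0.05, and DESeq2 called 8, all higher. Fn1, fibronectin, was at 1456, 1120.4, 2434 and 2398 CPM in the 2 WT and then the 2 Tubb3-/- mice, both pairs apart by more than the spread within a genotype. Its log2 difference was 0.91 (SE 0.17, edgeR adjusted p = 0.196) over all members and 0.98 (SE 0.19) with 3 or more markers. Eln lay at 3392, 2690.2, 4566 and 4992 CPM (0.65, SE 0.18), Col3a1, the chain of type III collagen, at 2829, 2278, 3802 and 4152 CPM (0.64, SE 0.18), and Sparc, a collagen-binding matrix protein, at 5142, 4172, 5973 and 6400.2 CPM. Col1a1 was at 1448 and 1084 CPM in WT and 2275 and 2238 CPM in Tubb3-/-. The median stayed above 0 without each mouse in turn, between 0.27 and 0.48 (the latter without WT replicate 1). With 3 or more markers 17 of 29 were higher in both and 3 lower, against 23.6% and 22.8% of all genes there. With at most 1 Myh11 UMI 21 of 29 were higher in both and 3 lower (median 0.42), against 24.2% and 24.3%. Of the basement membrane genes 6 of 24 were higher and 6 lower in both mice (median 0.06), and with 3 or more markers 8 of 23 were higher and 4 lower (median 0.24). Col4a1 (649, 617, 853 and 817 CPM) and Col4a2 (381, 345, 516 and 484 CPM) were among the former and the laminin gene Lama2 (444, 462, 394 and 416 CPM) among the latter.

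The 34 tested genes of the fibrotic programme held 19 higher and 1 lower in both Tubb3-/- mice (median 0.31), of which edgeR called none and DESeq2 6. With at most 1 Myh11 UMI, 23 of 34 were higher in both and 2 lower (median 0.42), against 24.2% and 24.3% of all genes in those cells. Over all members the median was 0.54 without WT replicate 1, 0.19 without WT replicate 2 and 0.20 without Tubb3-/- replicate 1. Timp1, an inhibitor of matrix metalloproteinases, was at 176, 125, 414 and 348 CPM, with a log2 difference of 1.34 (SE 0.19, edgeR adjusted p = 0.174, DESeq2 adjusted p = 3.04e-06). Serpinh1, the collagen chaperone HSP47, lay at 869, 799, 1067 and 942 CPM. Over all members Acta2 (6015, 2901, 5911 and 4661 CPM) and Tagln (4053, 1963, 4273 and 3166 CPM) overlapped between genotypes. WT replicate 2, the mouse with the fewest cells high in Myh11, was the lowest in both. With at most 1 Myh11 UMI Acta2 was at 338, 309, 567 and 477 CPM, without overlap (0.69, SE 0.13, edgeR adjusted p = 0.0981). With 3 or more markers it was at 1431, 622, 1798 and 1422 CPM and overlapped. Of the 6 smooth muscle markers, 3 were higher and 3 lower in both Tubb3-/- mice with at most 1 Myh11 UMI. Of the 6 tested markers of fibrotic fibroblasts, 5 were higher in both Tubb3-/- mice over all members (median 0.77), but with 3 or more markers 2 of 6 were higher in both and 4 overlapped (median 0.69). Postn, periostin, was at 227, 159, 339 and 345 CPM over all members, but at 80.8, 44.8, 101 and 77.8 CPM in the cells with 3 or more markers, where the genotypes overlapped. Runx1, a transcription factor of activated fibroblasts, was at 113, 84.2, 167 and 158 CPM, and Spp1 at 143, 138, 1095 and 444 CPM, of which Tubb3-/- replicate 1 held by far the most. Such markers were also used by the study to describe its fibrotic cells in these samples, so their direction is not independent evidence.

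Immediate-early and heat shock genes were lower in Tubb3-/-. These genes respond to stress and growth signals within minutes, and tissue digestion is known to induce them. Of 24 tested, 20 were lower in both Tubb3-/- mice and none was higher in both, against 22.9% and 21.8% of all genes, with a median log2 difference of -0.42. EdgeR called none, 12 were lower at an unadjusted p under 0.05, and DESeq2 called 3, all lower. Jun, a subunit of the AP-1 factor, was at 2145, 2217, 1464 and 1551 CPM with a log2 difference of -0.53 (SE 0.13, edgeR adjusted p = 0.26). Fos, its partner, lay at 3998, 3378, 3084 and 2844 CPM, Junb at 2535, 2169.8, 1829.8 and 1696 CPM, and Btg2, an antiproliferative gene, at 2079, 1826, 1503 and 1445 CPM. The count was again 20 of 24 with 3 or more markers (median -0.46) and 19 of 24 with at most 1 Myh11 UMI (median -0.44). But it was 12 of 24 with 2 or more Myh11 UMIs (median -0.37). Over all members the median lay between -0.22 (without WT replicate 1) and -0.50 without each mouse in turn. Hspa8, a heat shock protein, was at 1854, 1378, 1864 and 1421 CPM and overlapped. All lungs went through the same stated digestion, the handling time of each lung was not given in the sources used here, and its part was not tested.

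The promoters of this list are shown for Fos and Btg2, which held the cyclic AMP response motif TGACG, and for Jun, which did not. The motif was searched on both strands in the 300 bases around each gene's start (RefSeq, GRCm38.p6), where capitals mark a match on either strand. The window of Fos is chr12:85473640-85473939 (plus strand), that of Btg2 chr1:134079106-134079405 (minus strand), and that of Jun chr4:95052173-95052472 (minus strand).
Fos: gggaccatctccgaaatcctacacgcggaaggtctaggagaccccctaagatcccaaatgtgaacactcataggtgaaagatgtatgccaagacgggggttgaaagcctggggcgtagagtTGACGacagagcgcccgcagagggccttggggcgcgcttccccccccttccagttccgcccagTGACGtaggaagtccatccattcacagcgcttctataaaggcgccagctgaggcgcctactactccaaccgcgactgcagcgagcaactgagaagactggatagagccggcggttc
Btg2: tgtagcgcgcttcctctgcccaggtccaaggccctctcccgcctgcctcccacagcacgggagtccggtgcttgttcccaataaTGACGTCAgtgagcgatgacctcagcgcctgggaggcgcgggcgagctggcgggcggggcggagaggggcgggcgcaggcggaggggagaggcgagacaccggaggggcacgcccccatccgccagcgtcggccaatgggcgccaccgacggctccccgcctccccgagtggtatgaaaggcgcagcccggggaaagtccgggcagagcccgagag
Jun: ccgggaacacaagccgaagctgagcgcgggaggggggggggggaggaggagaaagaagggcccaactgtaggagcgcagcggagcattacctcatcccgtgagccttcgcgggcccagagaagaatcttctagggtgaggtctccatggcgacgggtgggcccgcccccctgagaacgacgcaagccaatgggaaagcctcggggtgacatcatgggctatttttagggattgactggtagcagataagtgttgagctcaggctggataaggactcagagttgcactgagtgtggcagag
Fos held 2 separate matches, and the 2 matches of Btg2 overlap in the palindrome TGACGTCA. The motif was present in 10 of the 20 promoters of this list found in the reference (50%), in 5681 of 27025 promoters in all (21.0%), in 1 of 20 promoters of the fibrillar matrix list (5%) and in 2 of 16 of the alveolar list (12.5%). Other lists, with few promoters each, held it at least as often: 3 of 5 BMP and TGF-β readouts (60%), 4 of 8 tubulins (50%) and 2 of 4 pericyte markers (50%). Among interferon genes it was present in 9 of 28 (32.1%). A match describes the sequence and is not evidence of binding.

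Among lipid and retinoid genes more were lower than higher in both Tubb3-/- mice. Over all genes 22.9% were lower and 21.8% higher in both. Of 22 lipid-handling genes, 10 were lower and 1 higher in both Tubb3-/- mice (median -0.17, and -0.30 without Tubb3-/- replicate 1). The one that was higher was Lpl, lipoprotein lipase, at 186, 136, 328 and 319 CPM, with a log2 difference of 1.01 (SE 0.17, edgeR adjusted p = 0.175, DESeq2 adjusted p = 5.22e-04). Apoe, an apolipoprotein, was at 2095, 1998, 1810.3 and 1685 CPM, and Plin2, a protein of lipid droplets, at 67.7, 99.8, 69.2 and 65.7 CPM, where the genotypes overlapped. Of 15 retinoid genes 6 were lower and 3 higher (median -0.13, -0.21 without WT replicate 1 and -0.28 with 3 or more markers). The retinoid share of higher genes lay near that of all genes. Lrat, the enzyme that forms retinyl esters for storage, was at 61.7, 156, 33.8 and 30.9 CPM in the 2 WT and then the 2 Tubb3-/- mice, with a log2 difference of -1.75 (SE 0.42, edgeR adjusted p = 0.245, DESeq2 adjusted p = 7.10e-04). The WT mice differed from each other for Lrat by more than WT replicate 1 differed from Tubb3-/-. With 3 or more markers Lrat was at 113, 227, 67.2 and 62 CPM, where the genotypes were again apart. Aldh1a1 lay at 567, 956, 478 and 397 CPM, and the retinoid genes Adh1 and Dhrs3 at 150.3, 228, 127 and 143 CPM and 43.9, 51.8, 34.5 and 34.3 CPM.

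**Figure D4:**
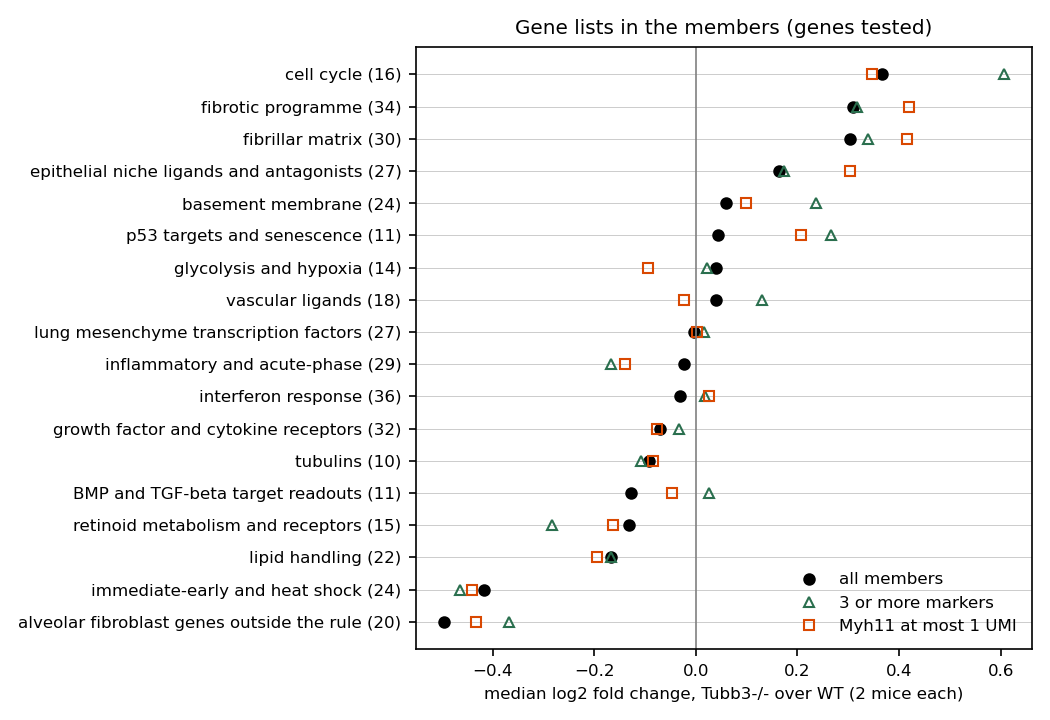
Median log2 fold change of each gene list (x axis, Tubb3-/- over WT, 2 mice each), for all members (black circles), members with 3 or more markers (green triangles) and members with at most 1 Myh11 UMI (orange squares), with the number of genes tested over all members in parentheses. Fibrillar matrix (0.30) and the fibrotic programme (0.31) lie right of 0 in each set, and immediate-early genes (-0.42) and alveolar fibroblast genes outside the rule (-0.50) lie left of 0 in each set.

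Growth factors for the epithelium and vessels were mixed. Of 27 niche ligands and antagonists, 9 were higher and 6 lower in both Tubb3-/- mice (median 0.16), and DESeq2 called 4, all higher. The direction of the median rested on 1 mouse, since it was -0.060 without Tubb3-/- replicate 2, and it was -0.066 in the whole-cell libraries alone and 0.014 after thinning. Igf1, insulin-like growth factor 1, was at 179, 224, 332 and 380.1 CPM, with a log2 difference of 0.82 (SE 0.15, edgeR adjusted p = 0.186) and 1.02 (SE 0.12, edgeR adjusted p = 0.0542) in the cells with at most 1 Myh11 UMI. Bmp3, a BMP family ligand, lay at 119.6, 145, 85.2 and 107 CPM. Among 18 vascular ligands, 6 were higher and 4 lower in both. Angpt1, the ligand of the endothelial receptor TIE2, was at 290.0, 379.8, 231 and 266 CPM, the chemokine Cxcl12 at 179, 119, 239.6 and 242 CPM, and Slit3, a guidance ligand, at 644, 581, 545 and 565 CPM. Of 32 growth factor and cytokine receptors, 9 were higher and 13 lower. Pdgfra lay at 369, 541, 347 and 308 CPM, Tgfbr3, betaglycan, at 243, 349, 203 and 239 CPM and Tgfbr2 at 364, 393, 404 and 446 CPM. Of 11 readouts of BMP and TGF-β signaling 2 were higher and 3 lower, with the TGF-β target Pmepa1 at 721, 566, 800.0 and 799 CPM and the SMAD repressor Skil at 195, 165, 145 and 135 CPM.

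For the remaining lists the background over all members was 21.8% of genes higher and 22.9% lower in both Tubb3-/- mice. Interferon response genes fell below it in both directions. Cell cycle genes lay above it for higher genes and below it for lower ones. Of 29 inflammatory and acute-phase genes, 5 were higher and 6 lower in both Tubb3-/- mice, and of 36 interferon response genes 4 were higher and 4 lower (9 and 4 of 35 with at most 1 Myh11 UMI). Nfkbia, the NF-κB inhibitor, was at 946, 575, 584 and 434 CPM, B2m, the light chain of MHC class I, at 889.6, 935, 976 and 1066 CPM, and Cxcl10, an interferon-induced chemokine whose gene overlaps Art3, at 201, 88.4, 111 and 93.5 CPM. Cxcl10 overlapped between genotypes, with WT replicate 1 the highest mouse. The acute-phase gene Hp, haptoglobin, lay at 133, 45.3, 319 and 244 CPM and Saa3 at 121, 35.2, 129 and 69 CPM, each with WT replicate 2 the lowest. Of 27 mesenchymal transcription factors 7 were higher and 6 lower, among the latter Klf4 (527, 359, 344 and 260.3 CPM). Of 10 tubulin genes, Tubb3 included, 3 were higher and 3 lower, and Tubb5, a widely expressed β-tubulin, was at 152, 159, 222 and 194 CPM. Of 16 cell cycle genes 6 were higher and none lower (median 0.37), but the median was -0.16 without Tubb3-/- replicate 1. Of 11 p53 targets 3 were higher and 1 lower, and of 14 genes of glycolysis and hypoxia 3 were higher and none lower.

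Markers of cell types other than fibroblasts and smooth muscle had lower sums than the smooth muscle markers, and some moved with genotype. The smooth muscle sums were 9064 and 4836 CPM in WT and 9350 and 7397 CPM in Tubb3-/-. Cox4i2, a pericyte marker, had a UMI in 22.9% of members, against 2.32% of the cells with Ptprc, and Msln in 20.4% against 4.47%. Of the members with at least 2 Myh11 UMIs, 39.2% held Cox4i2. The alveolar fibroblast genes outside the rule summed to 7962 and 12314 CPM in WT and 6989 and 7502 CPM in Tubb3-/-. All 5 mesothelial markers were lower in both Tubb3-/- mice over all members (median -0.84, and -0.29 without WT replicate 2), and 2 of 5 were with at most 1 Myh11 UMI. Their summed level over all members was 343 and 516 CPM in WT and 278 and 288 CPM in Tubb3-/-. Of 7 alveolar type 2 cell markers, 5 were lower in both, with sums of 249 and 261 CPM against 222 and 224 CPM, and none of 8 macrophage markers was higher in both and 1 was lower, with sums of 147 and 187 CPM against 255 and 159 CPM. The 7 endothelial markers summed to 50.1 and 47.0 CPM against 65.7 and 69.1 CPM, and the 7 pericyte markers to 336 and 331 CPM against 407 and 500.4 CPM. The 6 adventitial fibroblast markers summed to 249 and 232 CPM against 224 and 277 CPM, below the mesothelial and pericyte sums in each mouse. No marker of these lists was at 0 in every mouse. The erythroid sum of 588 CPM in WT replicate 2 came from 1 cell, which held 97.5% of that mouse's Hbb-bs UMIs, and the airway sum of 553 CPM in Tubb3-/- replicate 2 lay mostly in 1 cell with 76.8% of the Scgb1a1 UMIs. The part of such cells in the list results was not tested.

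The share of members that held a gene was compared after thinning every cell to 5000 UMIs, which left 3051 cells after 120 shallower ones were set aside. Timp1 was found in 36.5% and 32.7% of WT members and in 48.7% and 48.8% of Tubb3-/- members, a difference of 14.1 percentage points. With 3 or more markers it was 43.5% and 33.4% against 58.5% and 59.7%, and 8.89% of the cells with Ptprc held it. The Timp1 shares of the 2 genotypes did not overlap, which with 2 mice against 2 gives an exact permutation p of 0.33, the smallest the design allows (two-sided; 0.762 adjusted over 8 shares). Saa3 was found in 6.99% and 5.67% against 9.75% and 7.97%, and Cxcl10 in 19.7% and 15.4% against 14.2% and 13.9%, with the same exact p of 0.33, and 3.29% and 6.64% of the cells with Ptprc held them. At 3000 UMIs per cell both overlapped between genotypes, with Saa3 at 5.58% in WT replicate 1 and 4.61% in Tubb3-/- replicate 2, and Cxcl10 at 17.4% and 11.5% against 11.9% and 10.5%. Unthinned, the Timp1 share was 60.8% and 59.4% against 73.4% and 71.2%. The Cxcl10 groups overlapped without thinning (31.5% and 23.6% against 26.7% and 25.8%). The shares for Acta2 (85.2% and 76.3% against 84.2% and 86.9%), Plin2 (22.4% and 35.9% against 26.0% and 23.5%) and Mki67 or Top2a (2.51% and 1.64% against 3.43% and 1.89%) overlapped between genotypes. For Acta2 they did not overlap with at most 1 Myh11 UMI (69.0% and 66.4% against 69.7% and 75.5%). Nor did they at 3000 UMIs (76.9% and 67.2% against 78.2% and 78.9%). With 3 or more markers the Acta2 shares overlapped (76.5% and 69.5% against 68.5% and 77.1%). Spp1 had a UMI in 42.2% and 40.8% against 44.1% and 40.9% of members and in 55.4% of the cells with Ptprc, so its share is no measure of expression in the members. At least 3 interferon genes were found in 93.1% to 96.9% of members, a share too near the ceiling to compare.

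**Figure D5:**
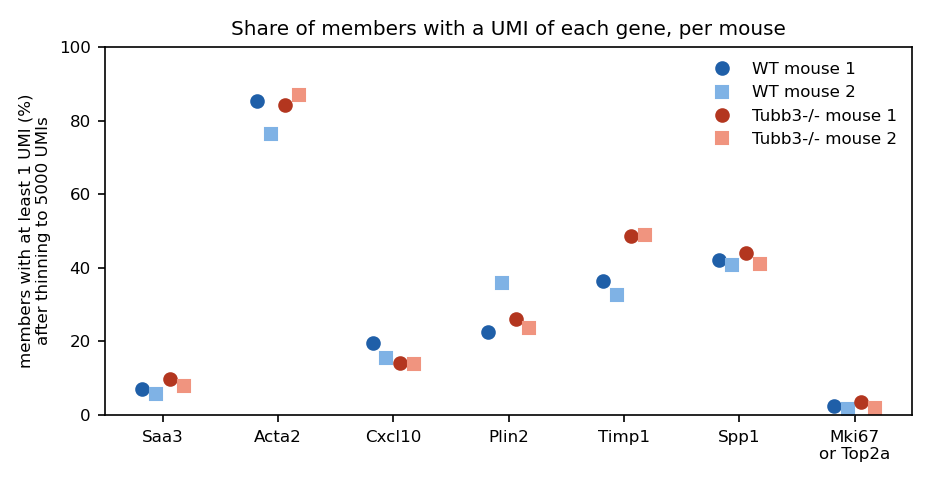
Share of members with at least 1 UMI of each gene after thinning to 5000 UMIs per cell (y axis, percent of cells) in each mouse; blue symbols are WT, red symbols Tubb3-/-, circles replicate 1 and squares replicate 2. Timp1 (48.7% and 48.8% against 36.5% and 32.7%) is the widest separation of genotypes, and Acta2, Plin2, Spp1 and Mki67 or Top2a overlap.

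Whether the genotype difference in the members was unlike that in other fibroblasts was tested as an interaction, with each mouse as a block. Against adventitial cells 2 of 14711 genes were called (0.0136%), and against fibrotic cells 1 of 14742 (0.00678%). Gpnmb, a transmembrane glycoprotein, was at 11.3 and 6.24 CPM in WT and 29.5 and 23.2 CPM in Tubb3-/- members, and at 60.2 and 35.9 CPM in WT and 46.8 and 30.3 CPM in Tubb3-/- adventitial cells. Its genotype difference was larger in the members by 1.93 on the log2 scale (SE 0.16, edgeR adjusted p = 0.0184). Ereg, the EGF receptor ligand epiregulin, was at 25.4 and 6.08 against 47.8 and 28.4 CPM in the members and at 49.3 and 9.14 against 28.7 and 16.0 CPM in adventitial cells, a difference of 1.64 (SE 0.17, edgeR adjusted p = 0.0418). For Ereg, WT replicate 1 lay far above WT replicate 2 in both sets. Dkk2, a Wnt antagonist, was at 2.98 and 1.70 CPM in WT and 15.1 and 9.62 CPM in Tubb3-/- members, and at 178 and 115 against 181 and 140 CPM in fibrotic cells, a difference of 2.25 (SE 0.22, edgeR adjusted p = 0.0308). The other genes did not pass this test, which does not show that they changed alike in the sets.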

How the data were processed

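The authors deposited UMI counts per gene and cell for 8 tagged libraries in 2 pools (10x 3′ chemistry), made per the submitters' processing notes with Cell Ranger 7.1.0 and mm10. The counts are whole numbers without normalization or correction for free RNA. Cells with 200 to 7500 genes and at most 15% mitochondrial UMIs were kept. UMIs of the members were summed per mouse over both libraries and tested with edgeR 4.0.16 (quasi-likelihood, TMM, filterByExpr, all 4 mice, no covariate) in R 4.3.3, with p-values adjusted by the Benjamini-Hochberg method over all genes tested. The replicates are separate mice. CPM in genotype comparisons are TMM-scaled, and CPM of pooled sets of cells are not. DESeq2 1.42.0 was an alternative. Interactions used the sums of both sets of cells with the mouse as a block. Shares of cells used exact permutation tests over mice (scipy 1.17.1). Scripts were tested on simulated data. Doublets were scored per pool with Scrublet in scanpy 1.11.5 and kept in the main results. Its automatic threshold marked 1 of 14160 cells in the whole-cell pool, so the threshold of the other pool was used there, a choice made after seeing the data, and it marked 334 cells (2.36%) and 622 cells (3.72%), of which 65 were members (2.05%). Promoter sequences were from RefSeq.

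The members, gene lists and comparisons were chosen with earlier results of these data known. Named in the text were the genes of the rule, the 12 genes higher and the 12 lower whose mean reached 10 CPM and whose genotypes did not overlap (called ones by size, otherwise by smallest unadjusted p), up to 5 genes per list by mean CPM, called interaction genes, Tubb3, Cre and Cxcl10, the 10 most variable genes and the 5 genes most like the marker sum. Igfbp2, Timp1, Col1a1, Wnt2 and the sex-linked genes were named after their values were seen. Alternatives were RLE scaling, no scaling, no filter on low counts, the replicate number as a block, each library kind alone, each mouse left out, a 10% mitochondrial limit, 1 or 3 markers, thinning to 5000 or 3000 UMIs, no doublets and DESeq2, and those added later were the split on Myh11, the rule without Hhip, and the block and left-out mice with 3 markers.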

Additional observations from a re-analysis of the deposited data

Results flagged for a closer look

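In 3 genes the genotype difference in the members was unlike that in another fibroblast set, by a test of the difference itself. Gpnmb differed by 1.93 on the log2 scale from adventitial cells, and over the alternatives its edgeR adjusted p ran from 1.49e-16 to 0.164. It was no longer called with 3 or more markers, or without either Tubb3-/- mouse (edgeR adjusted p = 0.138 and 0.164). Ereg differed by 1.64 from adventitial cells, with edgeR adjusted p from 8.95e-12 to 0.488, and it was not called with RLE scaling, in the mural cell-enriched libraries alone, after thinning or without either Tubb3-/- mouse. Dkk2 differed by 2.25 from fibrotic cells, with edgeR adjusted p from 2.26e-15 to 0.383, and after thinning the difference was 1.25 and not called. With 2 mice per genotype the levels of WT replicate 1 and WT replicate 2 differed most for Ereg.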

How the results depend on the processing

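The count of genes called by genotype in edgeR was 0, and was again 0 with RLE scaling, no scaling, no filter, a 10% mitochondrial limit, 1 marker, 3 markers, no doublets, no Hhip clause, the mural cell-enriched libraries alone, and members with 2 or more Myh11 UMIs. It was 55 in the whole-cell libraries alone, 1 after thinning (Fst), which also changed which cells met the rule, 2 with at most 1 Myh11 UMI, and 206 with DESeq2. Without each mouse in turn it lay between 0 and 1534, with 1534 without WT replicate 1, 613 without WT replicate 2, 0 without Tubb3-/- replicate 1 and 3 without Tubb3-/- replicate 2. A lone mouse is there assumed to vary like the pair of the other genotype. The replicate number matched the sex of the mice, and same-numbered mice deviated together (r = 0.46 over 8912 genes), but no label gives them a shared litter, batch or day, so the fit without the block was kept. The replicate block, which leaves 1 residual degree of freedom, gave 0 calls over all members and 596 with 3 or more markers (195 higher and 401 lower), among them 23 of the 23 named genes tested there, and without each mouse in turn those cells gave 0 to 1204 calls (1204 without WT replicate 1 and 561 without WT replicate 2). The cause of these differences was not tested.

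The interaction with adventitial cells called 2 genes, against 1 with RLE scaling, 309 without the filter, 1 in the mural cell-enriched libraries, 18 after thinning, 5 with 3 or more markers, and 0 to 516 without each mouse in turn. That with fibrotic cells called 1 gene, against 183 without the filter, 5 after thinning, 4 with 3 or more markers, and 7 to 156 without each mouse in turn. The share of Col1a2+ cells that met the rule differed by -5.76 percentage points (Tubb3-/- minus WT), was -10.2 after thinning, and lay between -2.79 and -8.73 without each mouse in turn.

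Of 77 genes examined, 67 kept their direction under every alternative in which they were tested. That count did not include the block and left-out mice with 3 markers. The 24 genes named by smallest p kept their direction wherever tested, except Nxph1 after thinning (0.039). Igfbp2 was at -0.074 with 2 or more Myh11 UMIs, and Slit3 at 0.043. Without each mouse in turn the log2 difference ran from -0.73 to 0.080 for Gpx3, -0.18 to 0.87 for Acta2, -0.12 to 0.92 for Tagln, -0.28 to 1.498 for Saa3, -0.18 to 0.26 for Hspa8, -0.97 to 0.21 for Cxcl10 and -0.33 to 0.71 for Myh11. The reversed end came without WT replicate 2 for Gpx3, Acta2, Tagln, Saa3 and Myh11, without Tubb3-/- replicate 1 for Hspa8, and without WT replicate 1 for Cxcl10. Without WT replicate 2 Hspa8 was at -0.17, and without Tubb3-/- replicate 1 Saa3 was at -0.18 and Myh11 at -0.084. Hspa8 was at -0.046 with 3 or more markers, -0.062 after thinning, -0.036 with at most 1 Myh11 UMI and -0.045 without the Hhip clause. Myh11 was at -0.016 with 1 marker, -0.32 with at most 1 of its UMIs and -0.11 with 2 or more. In the shares of cells, the difference in percentage points turned to -0.188 for Acta2 with 3 or more markers, 2.08 for Plin2 unthinned, -0.264 for Mki67 or Top2a at 3000 UMIs, and 0.344 unthinned and 0.135 with at most 1 Myh11 UMI for the interferon genes. Without each mouse in turn it ran from -11.2 to 2.31 for Plin2, -0.565 to 2.63 for Spp1 and -0.180 to 1.35 for Mki67 or Top2a. With 2 mice a genotype no exact test over mice can go below 0.33, and low genes such as Tubb3 are limited by their few UMIs.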
